A study of Drosophila simulans and Drosophila kikkawai and Drosophila takahashii with 176 samples.

Results

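The testis of Drosophila melanogaster was compared between 2 strains, the strain from which the reference genome was assembled, whose label gives the markers y; cn bw sp, and a non-reference strain labelled ED10. The comparison rests on 4 libraries of 93 in the series, 2 per strain, and covers all 17727 genes in the table. No treatment was applied, and each library was made from the pooled organs of about 25 mixed-stage adult males. The wider study sequenced accessory glands and testes of several Drosophila species, with a reference and a non-reference strain of each. Its aim was to follow the gain and loss of gene expression in these organs. The comparison here describes differences between libraries of 2 strains, and cannot show how far expression varies within the species. The 4 accessory gland libraries of the same strains, again 2 per strain, served as a second organ.

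The fly testis is a blind tube in which germline stem cells at the tip give rise to spermatogonia, spermatocytes and finally bundles of elongating sperm, supported by somatic hub and cyst cells. Spermatocytes switch on a large set of testis-specific genes through the meiotic arrest factors, and late germ cells replace histones by protamine-like proteins. The testis is known for transcribing an unusually large number of genes and long non-coding RNAs. The accessory gland lies next to it in the male tract and secretes seminal fluid proteins such as the sex peptide. In bulk RNA of a whole organ, fewer cells of a type and less RNA per cell cannot be told apart.

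Both strains' reads were aligned to the genome of the reference strain, so that a lower transcript level and reads that failed to align cannot be told apart where ED10 was low. Strain was also tied to other features of the libraries. Both reference libraries came from 1 dissector, coded here as A, and were sequenced on a HiSeq 4000. ED10 replicate 1 came from dissector B and a HiSeq 4000, and ED10 replicate 2 from dissector C and a HiSeq 2500, so strain and dissector cannot be told apart. The deposited values are the authors' TPM (transcripts per 1000000), but the totals per testis library were 1070165 to 1275873 and not 1000000. Between 15071 and 16300 genes had a value above 0, and 12131 to 12234 reached 1 TPM. The read counts behind the values were not used, so the depth of a single value is unknown here.

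The reference libraries resembled each other more closely than the ED10 libraries did. On log2(TPM + 1) over all genes, Pearson's r was 0.990 between the reference libraries, 0.966 between the ED10 libraries and 0.928 to 0.958 for the 4 pairs of libraries from different strains. These values are across genes of the same organ, which are not independent replicates. Among the 12552 genes with a mean of at least 1 TPM, 2.80% differed by at least 1 on the log2 scale between the reference libraries, 14.3% between the ED10 libraries and 15.9% to 23.7% between strains. The 2 ED10 libraries thus lay nearly as far apart as the closest pair from different strains.

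With 2 libraries against 2, the smallest two-sided p that an exact permutation test can reach is 0.333. A gene was therefore called where the ranges of the strains did not overlap and the gap between them was at least 1 on log2(TPM + 1). By this rule 596 genes were higher in the reference strain, 3.36% of those listed, and 382 were higher in ED10, 2.15%, which made 978 genes or 5.52% in all. Ranges that did not overlap by any margin were found for 20.4% of genes with the reference strain higher and 28.5% with ED10 higher. As a second rule, limma's moderated test with a trend was applied to the 12552 genes with a mean of at least 1 TPM. It placed 374 genes higher in the reference strain, 2.98%, and 203 higher in ED10, 1.62%, at an adjusted p below 0.05, and each of these 577 genes was also called by the gap. The median difference of the genes tested, reference minus ED10, was -0.11 on log2(TPM + 1).

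Counts with a library left out were read with the rules in mind. Under the gap rule such a count can only stay or rise, since the range of 1 strain shrinks to a point. With ED10 replicate 2 left out, so that all libraries came from the HiSeq 4000, the gap rule called 848 genes higher in the reference strain and 808 higher in ED10. With ED10 replicate 1 left out it called 1052 and 1143. Under limma-trend a left-out library leaves 1 strain with a single sample, which is assumed to vary like the pair of the other strain. The sums were 2263 and 3072 when the reference pair supplied the spread, without ED10 replicate 2 or 1, and 0 when the ED10 pair supplied it, with either reference library left out, where 1228 and 1007 genes had an unadjusted p under 0.05. Limma-trend also gave 0 calls when the filter on low values was dropped, with 3208 genes at an unadjusted p under 0.05. Called below means called by the gap rule, and limma-trend is given for the lists and for part of the named genes.

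**Figure D1:**
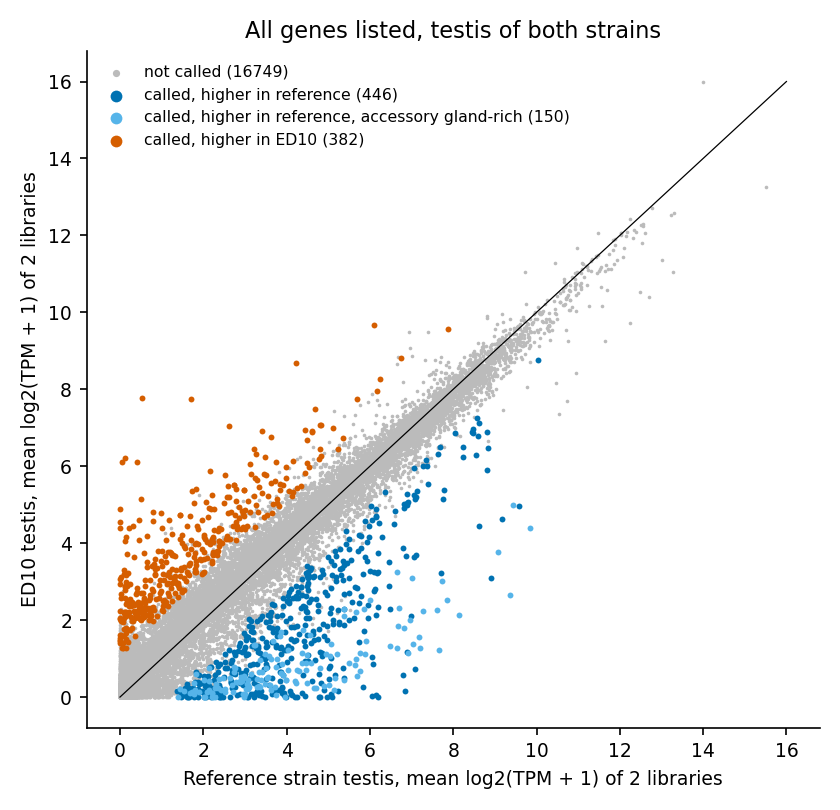
Each point is 1 of the 17727 genes, with the mean log2(TPM + 1) of the 2 reference testis libraries on the x axis and of the 2 ED10 testis libraries on the y axis. Grey points were not called, orange points are the 382 genes higher in ED10, and blue points are the 596 genes higher in the reference strain, of which the 150 light blue ones are at least 10 times higher in the accessory gland than in the testis of the reference strain. Most genes lie along the diagonal, and called genes include many that are near 0 in 1 strain.

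Of the 13764 protein-coding genes, 345 were called higher in the reference strain, 2.51%, and 285 higher in ED10, 2.07%. Without genes at least 10 times higher in the accessory gland than in the testis of the reference strain, the counts were 211 and 265. The larger count was then that of ED10. Many of the called genes that stood widest apart were below 1 TPM in 1 strain. Of the 12 with the widest gap higher in the reference strain, 7 were below 1 TPM in both ED10 libraries. Of the 12 with the widest gap higher in ED10, 8 were below 1 TPM in both reference libraries. Most of these genes carry only a CG number and have no role that can be given here. Over all protein-coding genes, 18 reached 10 TPM in both reference libraries and stayed below 1 TPM in both ED10 libraries, and 7 showed the opposite. Without the genes rich in the accessory gland these counts were 11 and 6. They were then 13 and 8 with cutoffs of 5 and 0.5 TPM, and 23 and 20 with cutoffs of 5 and 1 TPM.

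The widest gap higher in the reference strain was that of CG45154, which lies on the X chromosome at 21146281 to 21147041 of release 6. It was at 116 and 111 TPM in the reference libraries and at 0 and 0.243 TPM in the ED10 libraries. Its difference was 6.68 on log2(TPM + 1) (SE 0.26, limma-trend adjusted p 0.00233). An annotated transposable element of the reference assembly lies 50 bases from this gene. CG13675, on chromosome arm 3L at 8160315 to 8165518, was at 113 and 106 TPM in the reference strain against 0.444 and 0.510 TPM in ED10. CG45072 was at 52.3 and 59.4 TPM against 0.142 and 0.271 TPM. CG34367 was at 41.0 and 32.4 TPM against 0.136 and 0.111 TPM. In these 4 genes the replicates of a strain lay close together, and the strains differed by 5.06 to 6.68 on log2(TPM + 1).

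Nrx-1 encodes neurexin, a cell adhesion protein of the presynaptic membrane, and it is a large gene on 3R at 22468512 to 22486969. Its levels were 27.2 and 36.9 TPM in the reference testis and 0.563 and 0.795 TPM in the ED10 testis, a difference of 4.29 (SE 0.29, limma-trend adjusted p 0.00417). CG33307 was at 40.9 and 38.6 TPM against 1.16 and 0.325 TPM, and it overlaps CenG1A on the other strand. CG43447 was at 28.0 and 24.6 TPM against 0.467 and 0.544 TPM, and it overlaps CG44290 on the other strand. The libraries are directional, but whether the counting used strand is not given in the sources used here, so reads of such overlapping genes may be shared.

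The other 5 of these 12 genes had high levels in the accessory gland. CG4815 was at 64.2 and 67.3 TPM in the reference testis against 0.573 and 1.71 TPM in ED10, while the accessory gland held 90.9 and 166 TPM in the reference strain and 176 and 69.6 TPM in ED10. CG31021 was at 21.0 and 28.1 TPM against 0.389 and 0 TPM in the testis, and at 459, 960, 549 and 426 TPM in the 4 accessory gland libraries. CG42852 was at 127 and 314 TPM against 4.43 and 0 TPM, and CG43147 at 413 and 1057 TPM against 24.0 and 0.587 TPM. In the accessory gland CG42852 reached 52327 TPM and CG43147 reached 130959 TPM in reference replicate 1. Acp33A, which encodes an accessory gland protein, completed the set. CG43147 was the only one of the 12 that missed the threshold of limma-trend, with an adjusted p of 0.0533.

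The widest gap of all genes was that of CG6470, on the X chromosome at 18512829 to 18514867, which was higher in ED10. It was at 0.581 and 0.298 TPM in the reference testis and at 245 and 193 TPM in the ED10 testis, a difference of -7.25 (SE 0.27, limma-trend adjusted p 0.00233). CG3894, on 2R at 24763167 to 24766750, was at 0.309 and 0.358 TPM in the reference strain and at 66.3 and 70.2 TPM in ED10. It overlaps GstE12 on the other strand, and a transposable element is annotated inside it. CG13946 was well above 0 in both strains, at 20.4 and 15.3 TPM against 306 and 548 TPM.

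TrpA1, a cation channel that senses heat and irritants, was at 0.241 and 0.270 TPM in the reference testis and at 12.7 and 10.2 TPM in the ED10 testis. ppk6, a member of the pickpocket family of sodium channels, was at 0.179 and 0.066 TPM against 11.4 and 12.99 TPM. Doc3, one of the Dorsocross T-box transcription factors of embryonic patterning, was at 0.399 and 0.092 TPM against 25.0 and 17.1 TPM. The differences of these 3 genes were -3.30, -3.56 and -4.13 on log2(TPM + 1), with limma-trend adjusted p of 0.00732, 0.00600 and 0.00614. In all 4 accessory gland libraries Doc3, TrpA1 and ppk6 were below 1 TPM.

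Of the 12 genes with the widest gap higher in ED10, the ED10 libraries lay farthest apart on the log2 scale for CG15534, which was at 0.140 and 0.030 TPM in the reference strain and at 31.3 and 7.54 TPM in ED10. CG42395 was at 3.25 and 1.56 TPM against 37.1 and 43.6 TPM, and CG12011 at 1.80 and 1.60 TPM against 31.6 and 20.5 TPM. CG42395 overlaps LPCAT and CG12011 overlaps CG7991 on the same strand, so their reads may be shared. All 12 genes were past limma-trend.

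**Figure D2:**
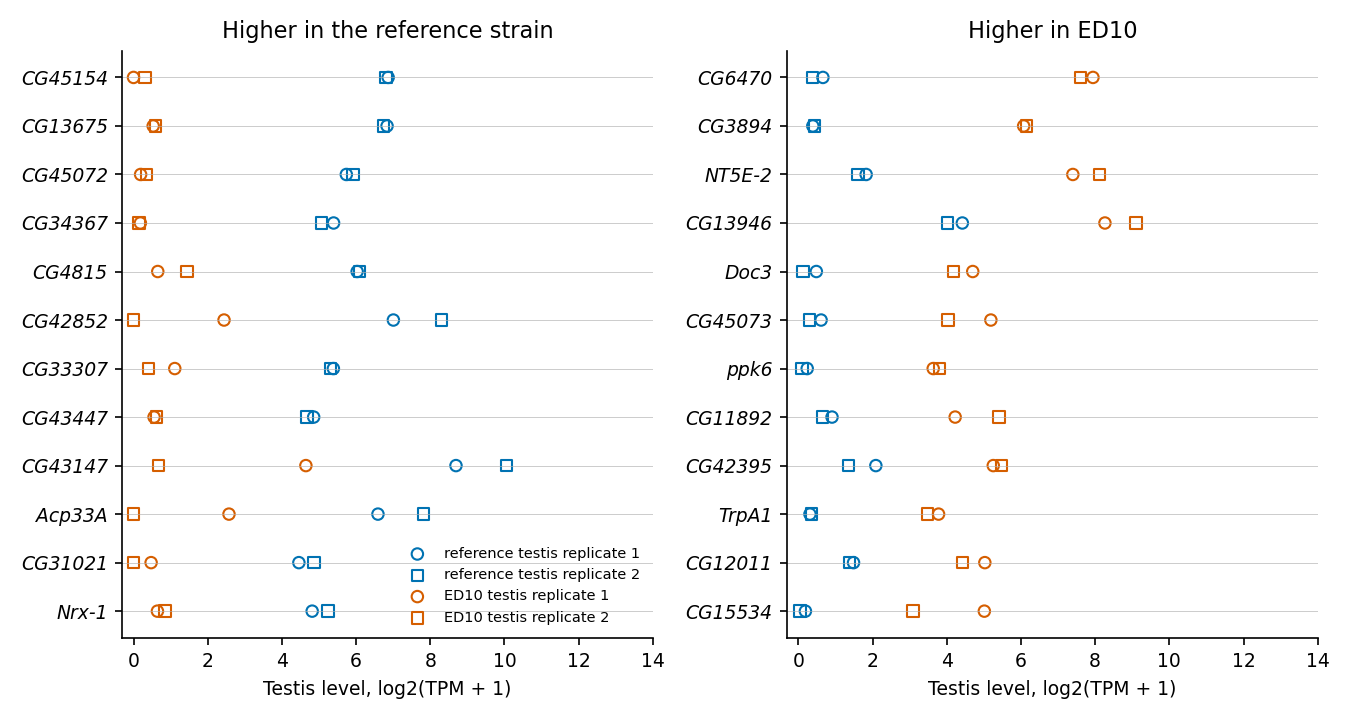
The 12 protein-coding genes with the widest gap in each direction, ordered by gap, with log2(TPM + 1) in each testis library on the x axis. Circles are replicate 1 and squares replicate 2, blue for the reference strain and orange for ED10. The gaps run from 3.97 to 6.50 on the left and from 2.90 to 6.94 on the right, and the points of a strain spread most for CG42852, CG43147 and Acp33A.

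The strain markers were examined next, as the label of the reference strain names mutations in 4 genes. The bw gene encodes a subunit of the transporter that carries pteridine precursors into pigment cells, and it was higher in the strain that carries the bw mutation, with 10.4 and 10.04 TPM against 1.22 and 0.798 TPM in ED10. The difference was 2.49 (SE 0.28, limma-trend adjusted p 0.0143). A transposable element is annotated inside bw in the reference assembly, and the gene overlaps mi on the other strand. The cuticle pigment gene y stayed between 0.029 and 0.195 TPM in the 4 libraries, and cn, which acts in ommochrome synthesis, between 0.322 and 0.586 TPM, so neither could be compared at these levels. The gene behind sp was not found under a name in the table. A mutant allele need not alter the transcript level, so these values do not check the labels.

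Of 12 other pigment genes, 2 were higher in the reference strain and 1 was higher in ED10, beside 3.36% and 2.15% of all genes. Their median difference was 0.16, beside -0.05 over all genes. The aspartate decarboxylase gene b was at 8.73 and 7.63 TPM in the reference strain and 0.513 and 1.18 TPM in ED10. The tryptophan oxygenase gene v was at 2.42 and 1.74 TPM against 0.212 and 0.340 TPM. The gene e, whose enzyme joins beta-alanine to dopamine, went the other way with 2.70 and 2.29 TPM against 6.53 and 11.0 TPM. Of these only b was past limma-trend, with an adjusted p of 0.0215. The call of v was lost when libraries were rescaled to equal totals, and that of e when they were divided by median ratios.

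The core programme of spermatogenesis gave no calls. None of the 11 meiotic arrest genes, 17 sperm chromatin and tail genes, 7 sperm leucyl aminopeptidases, 12 Y-linked fertility genes, 16 early germline and piRNA genes and 12 hub and cyst cell genes was called by the gap, and none was past limma-trend. Their median differences were 0.13, 0.31, -0.03, 0.15, -0.06 and -0.12 on log2(TPM + 1), beside -0.05 over all genes listed. These lists hold few genes and the background of calls is low, so the absence of calls says little about small differences.

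The sperm genes were among the most abundant of the testis in both strains. The summed level of the 17 sperm chromatin and tail genes was 45295 and 51003 TPM in the reference libraries and 39906 and 36254 TPM in the ED10 libraries. Mst87F, a sperm tail protein gene, stood at 4481, 4547, 4105 and 3992 TPM in reference replicates 1 and 2 and ED10 replicates 1 and 2. The largest difference in this list was that of dj, a gene of the elongating sperm tail, with 2678 and 3448 TPM against 2027 and 656 TPM. It was 1.40, with a limma-trend adjusted p of 0.251, and the low value was that of ED10 replicate 2. ProtB, 1 of the 2 protamine-like genes, was at 1816 and 2167 TPM against 920 and 1184 TPM, and its ranges did not overlap, with a gap of 0.62.

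Of 13 testis paralogs of proteasome subunits, which assemble the proteasome of sperm, Prosbeta5R2 alone was called, beside 3.36% of all genes in that direction. It was at 319.9 and 284 TPM in the reference testis and 95.5 and 84.9 TPM in the ED10 testis, a difference of 1.73 (SE 0.23, limma-trend adjusted p 0.0208). Its paralog Prosbeta5R1 was at 256 and 300.4 TPM against 267 and 232 TPM, so the strains' ranges overlapped. The other 12 members had differences of -0.12 to 0.52.

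**Figure D3:**
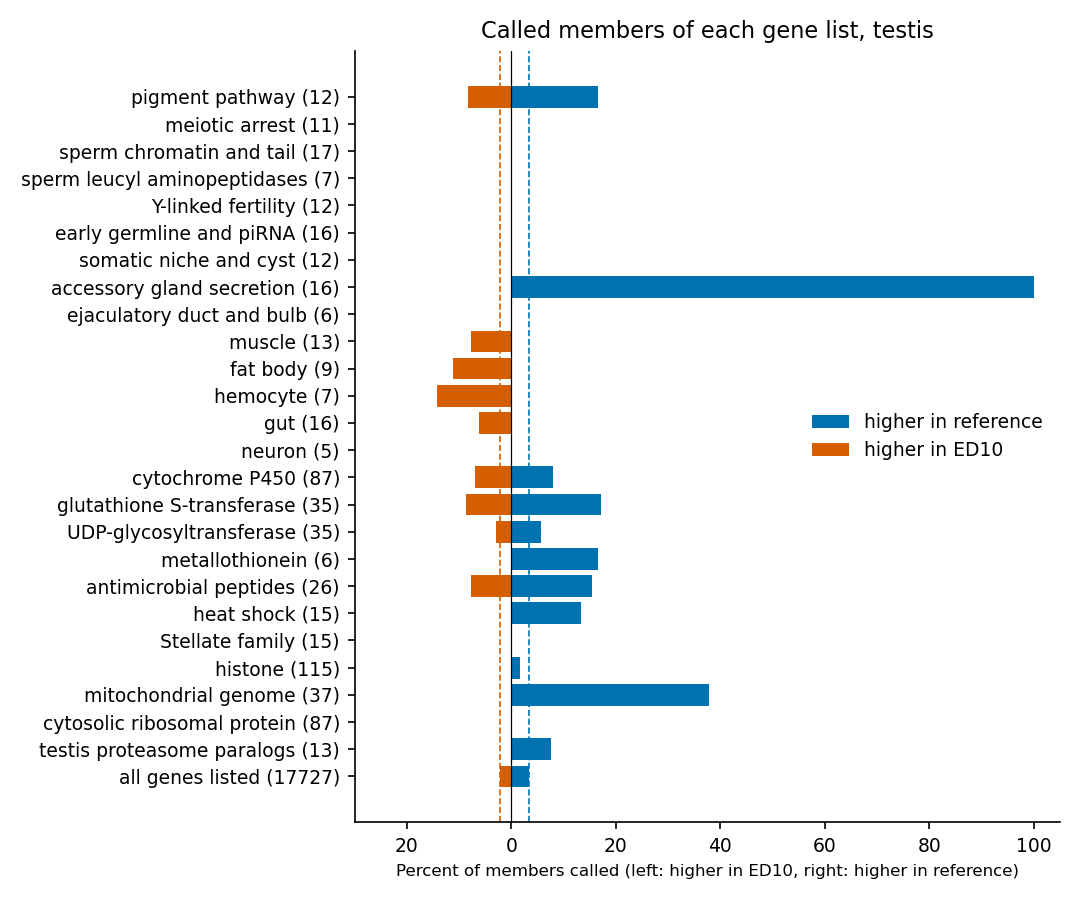
Share of the members of each gene list, with the number of members found in brackets, that were called higher in the reference strain (blue, to the right) or in ED10 (orange, to the left). Dashed lines mark the shares over all genes, 3.36% and 2.15%. The accessory gland secretion list stands at 16 of 16 and the mitochondrial genome at 14 of 37, while the germline lists hold no bar.

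Seminal fluid genes formed the most uniform group of calls. All 16 accessory gland secretion genes found in the table were called higher in the reference testis, against 3.36% of all genes, and 11 of the 16 were past limma-trend. Their median difference was 5.03. Their summed level was 2276 and 5624 TPM in the reference libraries and 186 and 61.8 TPM in the ED10 libraries. All 16 were called under each of the scalings and pseudocounts tried. The same genes summed to 210832 to 688732 TPM in the accessory gland libraries, so the testis of the reference strain held 0.393% and 0.971% of the level of its own gland and that of ED10 0.0800% and 0.0266%.

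These genes rose and fell together among the testis libraries. SP, which encodes the sex peptide, was at 90.6 and 182 TPM in the reference testis and at 11.1 and 5.03 TPM in ED10. Acp36DE, whose product is needed for sperm storage in the mated female, was at 84.0 and 279 TPM against 9.59 and 1.12 TPM. Acp26Aa, which encodes ovulin, was at 57.4 and 220 TPM against 5.30 and 0.912 TPM. All 16 were higher in reference replicate 2 than in replicate 1, by 1.59 to 4.78 times, and 15 of 16 were higher in ED10 replicate 1 than in replicate 2.

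The 4 members with the widest gap were Acp33A, Acp98AB, Mst57Dc and Mst57Db. Acp33A was at 95.3 and 224 TPM in the reference testis and at 4.95 and 0 TPM in ED10, with an adjusted p of 0.0294 under limma-trend. Mst57Db reached the highest level, 634 and 1314 TPM against 52.7 and 7.34 TPM. The part that accessory gland tissue took in the testis samples was not tested. More widely, 150 of the 596 genes higher in the reference testis, 25.2%, were at least 10 times higher in the accessory gland than in the testis of that strain, as were 22 of the 382 genes higher in ED10, 5.76%, and 5.03% of all genes. Without these genes, 446 genes were called higher in the reference strain and 360 higher in ED10.

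Acp95EF departed from the other 15 seminal fluid genes. In the accessory gland it was at 118699 and 87466 TPM in the reference strain but at 0.0332 and 0.543 TPM in ED10. In the testis it was at 445 and 1085 TPM in the reference strain and at 23.7 and 40.1 TPM in ED10. It was the only member with a higher level in the ED10 testis than in the ED10 gland, and the only member that was higher in ED10 testis replicate 2 than in replicate 1. For the other 15 genes the mean of the ED10 testis was 0.0215% to 0.0813% of that of the ED10 gland, and in the reference strain 0.450% to 0.933%. Acp95EF overlaps Spase22-23 on the other strand, on 3R.

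**Figure D4:**
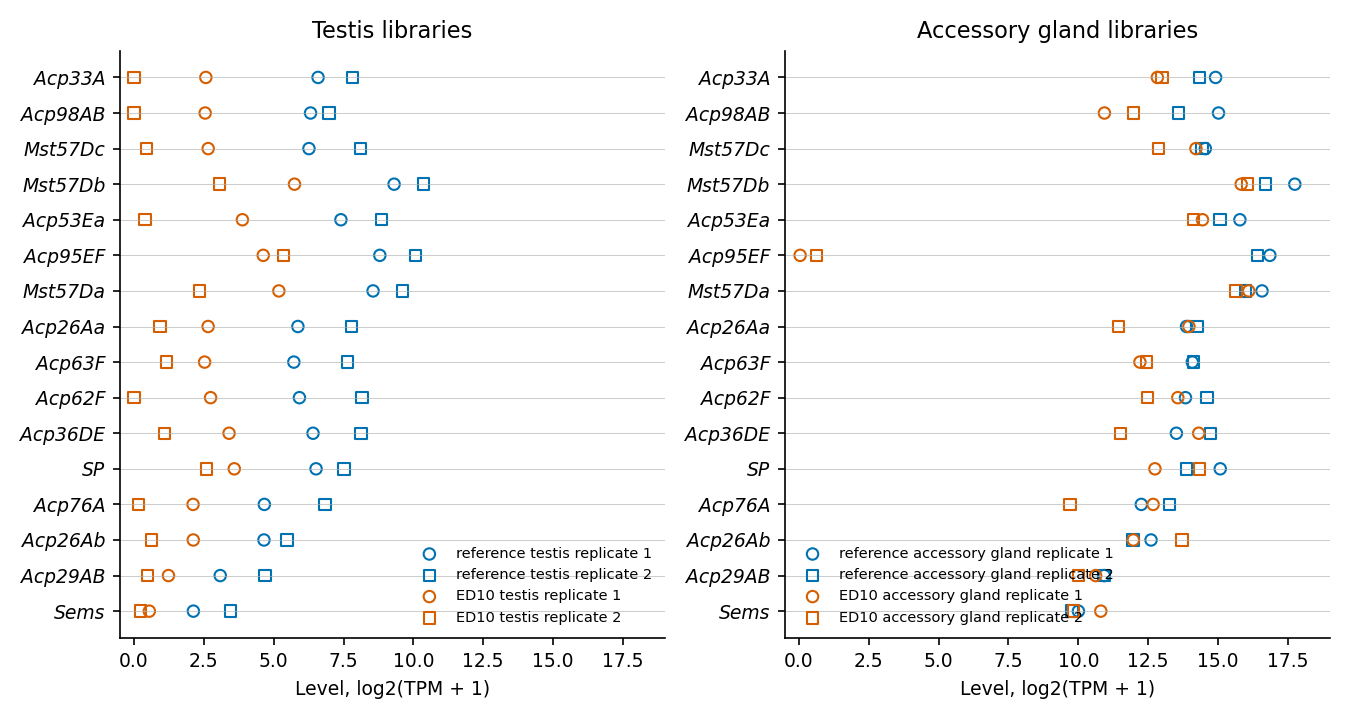
Level of the 16 accessory gland secretion genes as log2(TPM + 1) in the 4 testis libraries (left) and the 4 accessory gland libraries (right), blue for the reference strain and orange for ED10, circles for replicate 1 and squares for replicate 2. In the testis both reference libraries lie above both ED10 libraries for each gene. In the gland Acp95EF is at 0.0332 and 0.543 TPM in ED10, while the other 15 genes are at 834 TPM or more in both ED10 libraries.

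Markers of other tissues gave few calls, but most list medians lay below 0, towards ED10. Differences above 0, that is towards the reference strain, were found for 1 of 13 muscle genes, 1 of 6 ejaculatory duct and bulb genes, 0 of 7 hemocyte genes and 3 of 16 gut genes, but for 7 of 9 fat body genes, and for 7228 of all 17727 genes. The list medians were -1.08, -0.85, -0.42, -0.43 and 0.07. In the neuron list 1 of 5 genes was above 0 and the median was -0.31. These counts include genes whose ranges overlap, and some differences in the gut and the duct and bulb lists rest on ED10 replicate 1 alone. Members of a list are not replicates of a strain. The part of these tissues in the results was not tested. None of the 6 ejaculatory duct and bulb genes was called, with sums of 178 and 147.4 TPM in the reference libraries and 239 and 389 TPM in the ED10 libraries. The 13 muscle genes summed to 604, 780, 825 and 1657 TPM, the highest value being that of ED10 replicate 2. The troponin C gene TpnC73F alone was called, beside 2.15% of all genes in that direction, with 10.6 and 7.22 TPM against 28.0 and 85.7 TPM. In the fat body, hemocyte and gut lists 1 gene each was called, higher in ED10, beside 2.15% of all genes. They were Lsp2, a storage protein of the fat body, at 1.49 and 2.92 TPM against 7.11 and 9.50 TPM, Ppn, which encodes the matrix protein papilin of hemocytes, at 4.27 and 3.03 TPM against 17.6 and 14.2 TPM, and the trypsin gene epsilonTry at 0.286 and 0.221 TPM against 5.97 and 2.23 TPM. Of these 4 only Ppn was past limma-trend, with an adjusted p of 0.0306. The call of Lsp2 was lost when libraries were divided by median ratios.

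Transcripts of the mitochondrial genome separated ED10 replicate 2 from the other testis libraries. They made up 8.64% and 6.03% of the total in the reference libraries, 5.08% in ED10 replicate 1 and 0.590% in ED10 replicate 2. In the gland they made up 3.76% and 4.39% in the reference strain. ED10 gland replicate 1 had 1.85% and replicate 2 had 0.755%, and 21 of the 37 genes were called higher in the reference gland, beside 9.3% of all genes. Both ED10 replicate 2 libraries came from dissector C and a HiSeq 2500. Of the 37 genes, 14 were called higher in the reference strain and none in ED10, against 3.36% and 2.15% of all genes, and 3 were past limma-trend. The number of calls, which cannot fall when a library is left out, was 14 without ED10 replicate 2 and 33 without ED10 replicate 1. The libraries were made from poly(A)-selected RNA, and the part of RNA handling in these values was not tested.

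Of the 37 mitochondrial genes 13 are protein-coding, and 4 of these 13 were called. They were mt:ND4L, mt:ND2, mt:ND6 and mt:ATPase8, which encode subunits of respiratory complex I and of the ATP synthase. The rest of the 14 called genes were not protein-coding. The widest gap was that of mt:ND4L, with 545 and 617 TPM in the reference testis and 105 and 4.66 TPM in the ED10 testis. The gap was 2.36 and the difference 4.57 on log2(TPM + 1) (SE 1.296), with a limma-trend adjusted p of 0.136. mt:CoI, a subunit of cytochrome oxidase, was at 11779 and 8340 TPM against 6545 and 681 TPM and was not called. mt:ND4L overlaps mt:ND4, and mt:ATPase8 overlaps mt:ATPase6, so their reads may be shared.

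Detoxification genes were called in both directions. The cytochrome P450 list was taken as the 87 genes whose symbols begin with Cyp. It therefore also holds the cyclophilin genes Cyp1, Cypl and Cyp40 and the pseudogenes Cyp6a15Psi and Cyp6t2Psi, none of which was called. Of the 87, 7 were higher in the reference strain and 6 in ED10, beside 3.36% and 2.15% of all genes. By limma-trend 3 and 3 were past the threshold. The median difference of the 87 was 0.01. Cyp4ad1 was at 28.0 and 27.5 TPM in the reference testis and at 1.17 and 1.29 TPM in the ED10 testis, a difference of 3.69 (SE 0.25, limma-trend adjusted p 0.00417). Cyp301a1 was at 8.75 and 7.47 TPM against 0.106 and 0 TPM. In the other direction, Cyp6a20 was at 1.35 and 1.65 TPM in the reference strain and 12.3 and 11.3 TPM in ED10, and Cyp6a16 at 0.157 and 0.098 TPM against 4.22 and 4.90 TPM. Replicates of each of these 4 genes lay close together. Cyp301a1 overlaps Ak6 on the other strand.

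Of 35 glutathione S-transferase genes, 6 were higher in the reference strain and 3 in ED10, beside 3.36% and 2.15% of all genes, and 3 and 1 were past limma-trend. Their median difference was 0.14. GstD5 was at 24.7 and 17.4 TPM in the reference testis and at 126 and 119 TPM in the ED10 testis, a difference of -2.50 (SE 0.26, limma-trend adjusted p 0.0126). Some GstE genes on 2R were called the other way, while GstE1, GstE2, GstE4, GstE7, GstE10, GstE11, GstE12 and GstE14 were not called, with differences of -1.04 for GstE11 to 1.20 for GstE7. GstE3 was at 133.6 and 139.2 TPM in the reference strain against 28.9 and 44.2 TPM in ED10. GstE6 was at 34.9 and 35.7 TPM against 5.03 and 9.72 TPM, and GstE5 at 19.4 and 17.3 TPM against 5.37 and 4.64 TPM. Genes of these clusters are copies of each other, so reads may have been shared among them.

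Of 35 UDP-glycosyltransferase genes, 2 were higher in the reference strain and 1 in ED10, beside 3.36% and 2.15% of all genes, and none was past limma-trend. Their median difference was -0.10. Ugt50B3 was at 12.1 and 31.9 TPM against 2.86 and 0.271 TPM, Ugt35B1 at 8.20 and 21.7 TPM against 2.35 and 1.68 TPM, and Ugt35C1 at 0.651 and 0.446 TPM against 5.39 and 2.71 TPM. Both genes that were higher in the reference testis were at least 10 times higher in its accessory gland. Of 6 metallothionein genes, whose products bind copper and zinc, MtnC alone was called, beside 3.36% of all genes in that direction. It was at 12.1 and 16.5 TPM against 5.44 and 3.13 TPM, and the call was lost when libraries were rescaled to equal totals.

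Of 26 antimicrobial peptide genes, 4 were higher in the reference strain and 2 in ED10, beside 3.36% and 2.15% of all genes, and 2 and 2 were past limma-trend. Their median difference was 0.07. The 4 were short Bomanins on 2R, which are targets of the Toll pathway. BomS2 was at 19.9 and 29.9 TPM in the reference testis and 3.37 and 0.796 TPM in the ED10 testis, and BomS4 at 7.07 and 9.87 TPM against 0.634 and 0 TPM. The 2 genes higher in ED10 were Drs, which encodes the antifungal peptide drosomycin, at 2.55 and 1.38 TPM against 13.1 and 15.2 TPM, and the attacin gene AttC at 0.642 and 1.31 TPM against 5.14 and 6.01 TPM. Limma-trend adjusted p of these 4 genes were 0.0306, 0.0199, 0.0213 and 0.0434. BomS4 overlaps BomBc2 and AttC overlaps CG4744, each on the other strand.

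Of 15 heat shock genes, 2 were higher in the reference strain, beside 3.36% of all genes, and 1 was past limma-trend. The small heat shock gene Hsp23, whose product is a chaperone, was at 443 and 459 TPM in the reference testis and at 51.4 and 67.5 TPM in the ED10 testis, a difference of 2.92 (SE 0.24, limma-trend adjusted p 0.00732). Hsp67Bc, another small heat shock gene, was at 11.7 and 17.2 TPM against 5.06 and 4.89 TPM, and this call was lost when libraries were rescaled to equal totals. The list as a whole had a median difference of 0.05. None of 87 cytosolic ribosomal protein genes and none of the 15 Stellate family genes was called. Of 115 histone genes, His2B:CG17949 and His2B:CG33908 were called higher in the reference strain, a share below the 3.36% of all genes. Both were at no more than 1.94 TPM and among near-identical tandem copies whose reads cannot be assigned with certainty.

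Called protein-coding genes often lay side by side. Of the 630, which are 4.58% of all protein-coding genes, 162 had a called protein-coding gene as their next neighbour on the chromosome, 25.7%, against 8.66% of all protein-coding genes. Among the 476 called genes that were not rich in the accessory gland, the share was 18.1%, with gland-rich neighbours still counted. Called neighbours formed 67 runs, of which 33 held no accessory gland-rich gene. In 25 of these 33 all genes went the same way, and in 8 they went opposite ways. Some neighbours overlap each other, such as CG7991 and CG12011 or GstE9 and imd, so their reads may be shared and their calls need not be separate. The genes named in the next 2 paragraphs were chosen after their values were seen, apart from those already named.

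A pair of neighbours on 3R changed in opposite directions. CG45072, at 30122023 to 30123263, was higher in the reference strain, while CG45073, at 30123801 to 30124735 on the same strand, was at 0.528 and 0.235 TPM in the reference testis and at 35.5 and 15.4 TPM in ED10. The difference was 5.56 for CG45072 and -4.15 for CG45073, with limma-trend adjusted p of 0.00258 and 0.0133. The ecdysteroid kinase-like genes on 3R, a cluster that includes CHKov1, held a similar pair. CG11892, at 25281548 to 25283237, was at 0.874 and 0.576 TPM against 17.7 and 41.3 TPM, and the next gene, CG31300, was at 18.8 and 54.0 TPM against 1.02 and 0.490 TPM. CHKov1, further along the cluster, was at 1.01 and 1.32 TPM against 11.9 and 21.1 TPM, and a transposable element is annotated inside it in the reference assembly.

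The GstE cluster on 2R ended with another change of direction. From GstE3 to GstE9 every gene but GstE4 and GstE7 was called higher in the reference strain, while imd, the next gene and the adaptor of the immune deficiency pathway, was at 5.43 and 4.71 TPM in the reference testis and at 49.0 and 39.8 TPM in the ED10 testis. GstE8 and GstE9 missed the threshold of limma-trend, with adjusted p of 0.0691 and 0.0770. GstE7 had a gap of 0.87, and GstE4 was between 0.07 and 1.17 TPM. GstE9 and imd overlap at their ends on opposite strands. In the region of NT5E-2 on 2R, which encodes a 5'-nucleotidase, the 3 adjoining genes were all higher in ED10. NT5E-2 was at 2.55 and 2.04 TPM against 168 and 277 TPM, the nucleotidase gene veil at 8.83 and 5.58 TPM against 23.5 and 33.9 TPM, and CG43110, which overlaps both on the other strand, at 3.03 and 4.46 TPM against 19.2 and 12.1 TPM. CG43110 missed the threshold of limma-trend with an adjusted p of 0.0518. A transposable element is annotated inside NT5E-2.

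Non-coding RNA genes made up a larger share of the genes higher in the reference strain. They were 226 of these 596 genes, 37.9%, and 82 of the 382 genes higher in ED10, 21.5%, while 15.3% of all genes listed are non-coding RNA genes. The following 2 were picked after their values were seen. The widest gap in the reference direction was that of lncRNA:CR46063 on 2L, at 68.5 and 70.4 TPM in the reference testis and 0.0699 and 0 TPM in ED10. The widest in the other direction was that of lncRNA:CR45408 on 3L, at 0 and 0.0545 TPM against 63.2 and 72.4 TPM. The annotation was made on the genome of the reference strain.

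Called genes made up a smaller share of the genes on the X chromosome than on the autosomes. Of 2633 X-linked genes, 42 were higher in the reference strain and 38 in ED10, 3.04% in all, compared with 6.01% of the 14571 genes on the arms of chromosomes 2 and 3. Among protein-coding genes that were not rich in the accessory gland, the shares were 2.49% and 3.81%. The Y chromosome gave 1 call among 113 genes. A transposable element of the reference assembly lay inside 12.1% of the 265 protein-coding genes higher in ED10 that were not rich in the accessory gland, and inside 4.83% of those higher in the reference strain, against 6.85% of all such genes, mitochondrial genes left out. The median span of these sets was 2548, 1314 and 2182 bases. These shares are descriptions and were not tested.

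The accessory gland of the same strains showed which differences recurred in another organ. There the gap rule called 1648 genes higher in the reference strain, 9.3%, and 354 higher in ED10, 2%, and limma-trend 1487 of 10352 genes, 14.4%, and 229, 2.21%. When the libraries were rescaled to equal totals these were 1211 and 791 genes, and after division by median ratios 2065 and 154. The 17 sperm chromatin and tail genes summed to 1410 and 1787 TPM in the reference glands and to 25.8 and 6.91 TPM in the ED10 glands, and all 17 were called higher in the reference gland. The part of testis tissue in the gland samples was not tested. Gland calls in the reference direction were made for 29.0% of protein-coding genes that were at least 10 times higher in the reference testis than in its gland, and for 1.304% of those not rich in either organ.

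For genes rich in neither organ the recurrence of a call was set beside that background. Richness was defined from the reference libraries, which also enter the calls. A gene high in the reference testis stayed in this group only if its reference gland level was high enough too. Part of the recurrence can therefore be built in, and the shares of the 2 directions cannot be compared. Of 100 such protein-coding genes higher in the reference testis, 19 were also called higher in the reference gland, 19% against 1.304%. Of 207 such genes higher in the ED10 testis, 10 were also called higher in the ED10 gland, 4.83% against 2.99%, and 9 were called the opposite way, higher in the reference gland, 4.35% against 1.304%. Over all protein-coding genes 15 were called in opposite directions in the organs, and 14 of these were higher in the ED10 testis and the reference gland. BomS2 and BomS4 were among the genes called in the reference direction in both organs, and Cyp6a20, NT5E-2 and CG3894 among those called in the ED10 direction. The gland libraries were other samples of the same stocks. Dissector A prepared both reference glands too, and they were sequenced on a HiSeq 4000. ED10 gland replicate 1 came from dissector D and a HiSeq 3000. ED10 gland replicate 2 came from dissector C and a HiSeq 2500, as did ED10 testis replicate 2. In the gland, strain, dissector and platform thus cannot be told apart. Without reference gland replicate 2, where the sum of gland calls can only stay or rise, 1777 genes were called higher in the reference strain and 2546 in ED10.

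Among the 3 genes with the widest gap in ED10, the difference was present in both organs. CG6470 was at 6.03 and 7.66 TPM in the reference gland and at 177 and 146.7 TPM in the ED10 gland, a difference of -4.38 (SE 0.67, limma-trend adjusted p 3.53e-05). CG3894 was at 0.511 and 1.39 TPM against 12.9 and 13.47 TPM, and NT5E-2 at 0.551 and 0.585 TPM against 9.02 and 10.9 TPM. In the other 9 genes of this set the ranges of the gland libraries overlapped or were apart by less than 1. Of the 12 genes with the widest gap in the reference direction, 4 were called higher in the reference gland. The background was 9.3% of all genes. It was 29.0% of protein-coding genes at least 10 times higher in the reference testis than in its gland. CG45154 and CG13675 were such genes, at 2.721 and 4.008 TPM and at 1.303 and 2.25 TPM in the reference gland. The other calls were those of the gland-rich genes CG43147 and Acp33A. Whether testis tissue in the gland samples gave the calls of CG45154 and CG13675 was not tested.

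The difference between the strain effects in the 2 organs was tested with limma-trend as a single contrast in 12689 genes. The testis effect, reference minus ED10, exceeded that in the gland in 255 genes, 2.01%, and lay below it in 1101 genes, 8.68%. For CG4815 the testis effect was 5.01 and the gland effect 0.15, and they differed by 4.87 (SE 0.75, adjusted p 0.00598). For Nrx-1 they differed by 4.24 (SE 0.55, adjusted p 0.00403), and for CG11892 by -5.10 (SE 0.60, adjusted p 0.00361). For Hsp23 the testis effect of 2.92 and the gland effect of 2.55 differed by 0.36 (SE 1.74, adjusted p 0.944), an interval too wide to call them alike. The number of genes past this test was 429 without reference testis replicate 1 and 572 without reference testis replicate 2.

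**Figure D5:**
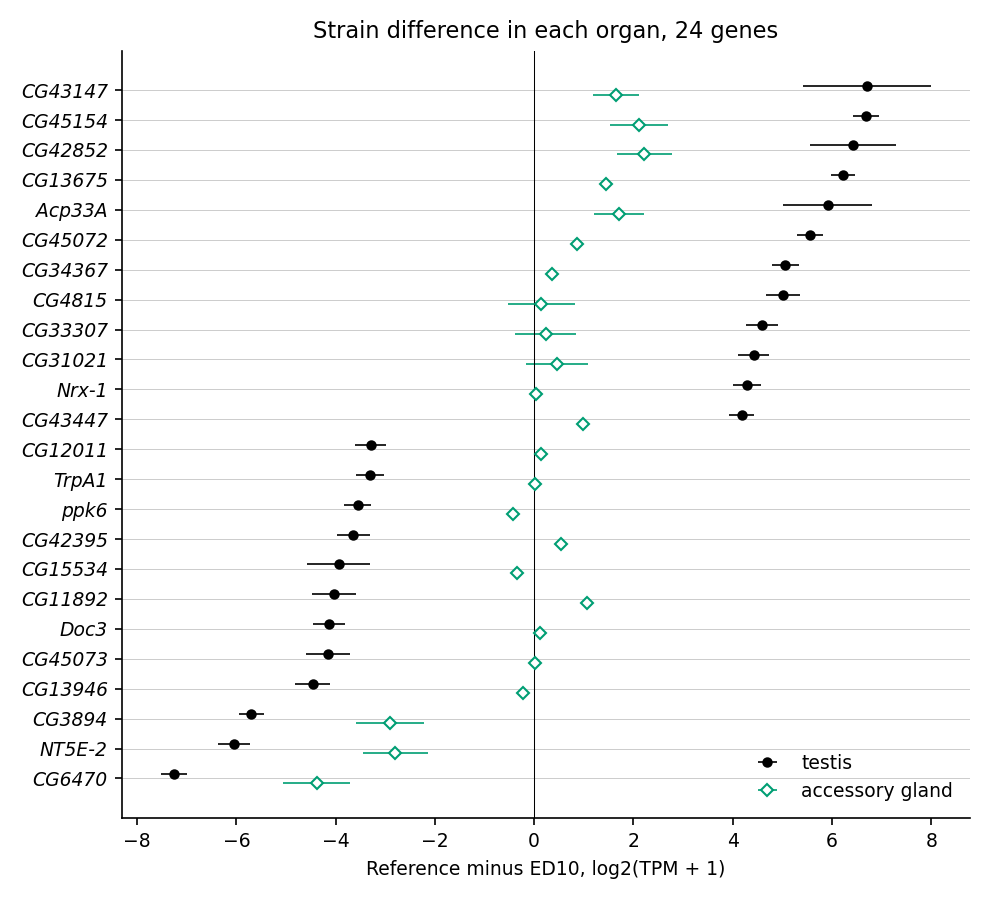
Strain difference, reference minus ED10 on log2(TPM + 1), of the 24 genes with the widest gap in the testis, for the testis (black) and the accessory gland (green). Bars are limma-trend standard errors, and a gland point without a bar belongs to a gene whose mean in the gland was below 1 TPM. CG6470, NT5E-2 and CG3894 lie left of 0 in both organs, whereas the other 9 genes that are higher in the ED10 testis have gland values between -0.43 and 1.07.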

How the data were processed

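The authors trimmed the reads, aligned them to release 6 of the D. melanogaster genome with STAR 2.5.3 and estimated annotated transcripts only with StringTie, version 1.3.4 per the labels (the paper's methods name another version). The deposited values are their TPM per gene and library, read here as a signal on the authors' scale because totals differ from 1000000. Runs of a library had been merged, and 0 per-sample columns were left out. Biotypes and positions came from Ensembl's BDGP6 annotation, which matched 17502 of 17727 gene IDs. Ranges were compared on log2(TPM + 1), and limma 3.58.1 (R 4.3.3, trend, Benjamini-Hochberg) was run on genes with a mean of at least 1 TPM. It was first run on simulated libraries with the same spread in both strains. The real strains differed in spread, so the simulation does not show how the test behaves on them. The p-values rest on the spread between 2 libraries per strain. For each gene it was drawn towards a trend over all genes tested and taken as equal in both strains. Genes named are the 12 protein-coding genes with the widest gap in each direction, the strain markers and up to 4 called members of each list; exceptions are stated. Members and lists were chosen with earlier results of these data known. Pseudocounts, filters, scalings and left-out libraries were tried. The other species' tables were not used.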

Additional observations from a re-analysis of the deposited data

Results flagged for a closer look

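The strain effect differed between testis and accessory gland, by limma-trend's test of the difference itself at an adjusted p below 0.05, in 28 of the 62 genes chosen by the naming rule. Over all 12689 genes tested, 2.01% passed with the difference above 0 and 8.68% with it below 0. Most of the 62 were chosen for their gap in the testis, which is part of this contrast. Their share is therefore raised by the choice. A gene near 0 TPM in all gland libraries also has a gland effect near 0. The values below are the testis effect minus the gland effect, each effect being reference minus ED10 on log2(TPM + 1).

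Among genes higher in the reference testis, the difference was 4.57 for CG45154, 4.77 for CG13675, 4.68 for CG45072, 4.69 for CG34367, 4.87 for CG4815 and 4.35 for CG33307. It was 3.20 for CG43447, 3.96 for CG31021, 4.24 for Nrx-1, 3.04 for Cyp4ad1, 4.68 for Mst57Dc, 2.70 for Cyp301a1 and 2.44 for bw. Adjusted p ranged from 0.00325 for CG45154 to 0.0474 for Mst57Dc.

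Among genes higher in the ED10 testis, it was -2.68 for epsilonTry, -1.79 for AttC, -2.31 for Cyp6a16, -3.60 for CG15534, -3.44 for CG12011 and -3.31 for TrpA1. It was -4.19 for CG42395, -5.10 for CG11892, -3.13 for ppk6, -4.18 for CG45073, -4.26 for Doc3, -4.24 for CG13946, -3.25 for NT5E-2, -2.80 for CG3894 and -2.88 for CG6470. The last 3 were also called higher in ED10 in the gland, while Doc3, TrpA1 and ppk6 were below 1 TPM in all 4 gland libraries.

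Of the genes named outside that rule, 11 also passed this test. The difference was 4.92 for lncRNA:CR46063 and 3.17 for CG44290. It was -11.85 for Acp95EF, -6.31 for lncRNA:CR45408, -6.19 for Mst87F, -4.95 for ProtB, -4.90 for dj, -2.99 for Prosbeta5R1, -2.21 for CG43110, -2.07 for imd and -1.60 for CG7991. A negative value does not always mean that a gene was higher in the ED10 testis. The testis effect itself was 4.45 for Acp95EF, 0.16 for Mst87F, 0.93 for ProtB and 1.40 for dj, and the gland effect was larger. For Acp95EF the gland effect was 16.30. By contrast, lncRNA:CR45408, CG43110, imd and CG7991 were called higher in the ED10 testis.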

How the results depend on the processing

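The limits are 2 libraries per strain, 1 dissector for the reference strain, values without read counts and alignment to the genome of 1 strain. The gap rule called 978 genes in the testis. The count was 1805 with a pseudocount of 0.1, 630 over protein-coding genes, 2431 and 319 for a gap of at least 0.5 and 2, and 1207 to 2195 with a replicate left out. For the gland, with 2002, it was 3253 with a pseudocount of 0.1, 3544 and 1000 for a gap of at least 0.5 and 2, and 2453 to 4323 with a replicate left out. Limma-trend called 577 genes in the testis, 0 with no filter, 379 at a mean of at least 5 TPM, 324 among protein-coding genes, and 0 to 3072 with a replicate left out. The difference between organs, with 1356 genes, gave 429 to 1688 with a replicate left out. A gap between ranges cannot shrink when a library is left out, so those counts had to stay or rise. The limma-trend counts without a library take their spread from the other strain's pair. For the other settings the cause was not tested. The other alternatives for these counts stayed within 1.5 times. Leaving out accessory gland-rich genes, chosen after seeing the data, left 806 and 490 calls in the testis. Of the 62 named genes, none reversed a call, and 6 lost their call under a scaling. Rescaling to equal totals moved the median difference of the genes tested from -0.11 to -0.23, and median ratios moved it to 0.0028. No paired analysis was possible because the labels give no shared replicate numbers.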
